A study of Mus musculus with 9 samples.

Results

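Profilin 1 and profilin 2, encoded by Pfn1 and Pfn2, are 2 of the 20603 genes counted in mouse conjunctiva, the mucous membrane of the eyelids and eye surface. They were taken by their gene symbols, and both were among the 15613 genes with enough counts to be tested. Pfn2 was selected on its measured counts: it was the only gene that edgeR's quasi-likelihood test over all 9 libraries called lower with ovalbumin challenge in the control mice. Other fits called between 0 (limma-voom) and 317 (DESeq2) genes lower. Its values in that comparison are therefore given as a description and without a test. Pfn1 is described as its paralogue and was not chosen for its own values.

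Messenger RNA was sequenced from 9 libraries, each a pool of conjunctiva from 3 C57BL/6J mice, in 3 groups of 3. Unchallenged Ctrl and challenged Ctrl pools came from Vegfr3 fl/fl littermates without Cre. Challenged Vegfr3iLECko pools came from Vegfr3 fl/fl;Prox1CreERT2 mice, in which the Prox1 promoter drives a tamoxifen-inducible Cre recombinase, and Prox1 is best known as a gene of lymphatic endothelium. All mice, controls included, received 5 injections of tamoxifen at 75 mg/kg in week 5. All were immunized in week 6 with ovalbumin (250 µg), pertussis toxin (0.3 µg) and, as adjuvant, aluminum hydroxide (5 mg). Challenged eyes then received ovalbumin drops (250 µg in 5 µL) daily for 28 days, starting after 14 days. The labels do not say which eye or animals gave the unchallenged pools, and the series compares no unchallenged knockout group, so the genotype was compared under challenge only.

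Profilins are small proteins that bind actin monomers, exchange their nucleotide and carry them to growing filament ends. They also bind runs of proline in formins and Ena/VASP proteins, which feed profilin-actin to the filament, and they bind membrane phosphoinositides. Profilin 1 is made in nearly every cell type, while profilin 2 is best known from the brain, where it has been found in complexes with WAVE and endocytic proteins. Profilin 3 and profilin 4 are known mainly from the testis.

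Total counts were 16490050 to 24746836 per library. The conjunctival keratin gene Krt13 was at 2874 to 3378 CPM (the count relative to the library's total after TMM scaling) in the group means, and the goblet cell mucin gene Muc5ac at 250.2 to 434.1 CPM. Flt4, the gene of Vegfr3, was at 17.92 ± 3.947 CPM in challenged Ctrl and 7.784 ± 4.486 CPM in challenged Vegfr3iLECko (SD, n = 3 pools). That difference did not pass over all genes (edgeR quasi-likelihood test, adjusted p = 0.468).

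The sequences before both gene starts are shown because the 2 paralogues did not move together across the groups. Each is the 250 bases before the RefSeq start, 5′ to 3′ on the gene's strand, which is the minus strand for both genes, from RefSeq on GRCm38.p6. The counts were made on another build, mm39. Capitals mark the GC box GGGCGG, read on either strand.
Pfn1, chr11:70654651-70654900: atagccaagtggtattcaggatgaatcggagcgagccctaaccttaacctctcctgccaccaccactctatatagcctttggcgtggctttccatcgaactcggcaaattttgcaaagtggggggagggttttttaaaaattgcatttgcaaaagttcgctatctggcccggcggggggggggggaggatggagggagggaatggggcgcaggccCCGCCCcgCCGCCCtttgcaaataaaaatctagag
Pfn2, chr3:57847758-57848007: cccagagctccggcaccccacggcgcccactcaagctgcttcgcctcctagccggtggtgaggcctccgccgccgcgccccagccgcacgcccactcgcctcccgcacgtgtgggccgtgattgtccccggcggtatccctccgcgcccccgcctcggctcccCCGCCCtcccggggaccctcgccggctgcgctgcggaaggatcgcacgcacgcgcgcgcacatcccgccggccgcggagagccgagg
The Pfn2 sequence was 78.0% G and C with 38 CpG dinucleotides, and the Pfn1 sequence 54.4% with 12. Medians over 32851 promoter windows of this length were 52.4% and 6.0 CpG. The Pfn1 window held 2 matches to GGGCGG and the Pfn2 window 1, and 32.7% of all windows held at least 1. Neither window held TATAAA (in 12.4% of windows), CCAAT (33.8%), TTCNNNGAA (7.02%) or a CArG box (1.47%), searched on both strands. These letters describe the windows only.

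Pfn1 was the abundant profilin in every library. Its level was 172.9, 300.7 and 415.4 CPM in unchallenged Ctrl 1 to 3. It was 270.1, 333.2 and 440.2 CPM in challenged Ctrl 1 to 3 and 277.2, 527.7 and 432.6 CPM in challenged Vegfr3iLECko 1 to 3. All 3 groups overlapped, and library 1 was the lowest of each group. Pfn2 was far steadier within groups. It was at 38.56, 39.9 and 36.22 CPM in unchallenged Ctrl 1 to 3 and at 17.01, 19.85 and 16.48 CPM in challenged Ctrl 1 to 3. In challenged Vegfr3iLECko 1 to 3 it was at 33.01, 29.02 and 32.99 CPM. No 2 groups overlapped for Pfn2: unchallenged Ctrl was highest, challenged Vegfr3iLECko came next and challenged Ctrl was lowest. In 3.21% of tested genes every challenged Ctrl library was below all others, and the share with the full order was not counted. Part of this order is the comparison that chose Pfn2. Within groups the coefficient of variation was 4.87% to 10.2% for Pfn2 and 24.7% to 40.9% for Pfn1. The test that chose Pfn2 favours genes with little spread within groups, so its steadiness is not independent of that choice. The counts behind these values were 275 to 1042 for Pfn2 and 3304 to 8947 for Pfn1. The testis-linked Pfn4 had 16 to 59 counts per library (0.7785 to 2.477 CPM), and Pfn3 is not a symbol of the table. In bulk tissue, fewer cells of a type and less RNA per cell cannot be told apart.

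**Figure D1:**
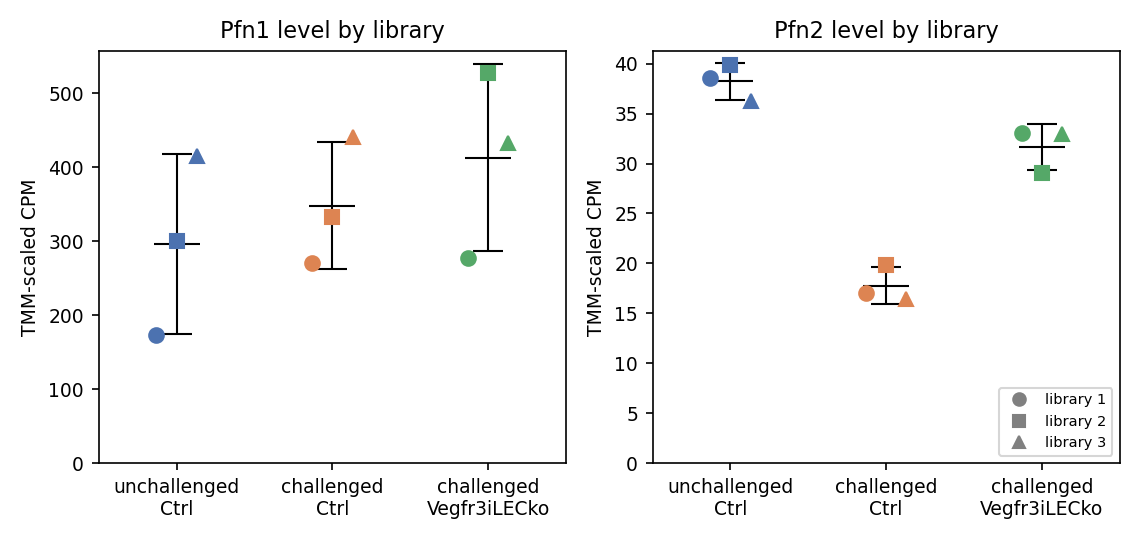
TMM-scaled CPM of Pfn1 (left) and Pfn2 (right) in each library, by group; symbols are libraries 1 to 3, and bars show the mean and SD of 3 pools. The Pfn1 groups overlap. For Pfn2 the 3 challenged Ctrl libraries lie at 16.48 to 19.85 CPM, below all others, as in 3.21% of tested genes.

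Per kilobase of transcript, Pfn1 was at 282.9 ± 115.8, 332.1 ± 82.07 and 393.8 ± 120.7 CPM per kb in unchallenged Ctrl, challenged Ctrl and challenged Vegfr3iLECko (SD, n = 3). Pfn2 was at 25.76 ± 1.253, 11.98 ± 1.222 and 21.34 ± 1.55 CPM per kb in the same order. On this scale Pfn1 was 27.7 times as abundant as Pfn2 in challenged Ctrl, 18.5 times in challenged Vegfr3iLECko and less than that in unchallenged Ctrl. Lengths are means over the 4 transcripts that GENCODE M21 lists for each gene, 1047.5 and 1484 bases, and may differ from those the authors counted on. Counts per gene do not separate the Pfn2 transcripts from each other. In the same annotation no exon of another gene overlapped either gene. A single transcript of another gene, the processed pseudogene AC124336.1, matched Pfn1 at 85% identity or more over at least 100 bases, and 0 matched Pfn2.

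Pfn2 made up a smaller share of profilin counts in challenged than in unchallenged controls, a ratio that does not depend on scaling between libraries. Pfn2 was chosen by its difference between these 2 groups, so the lower share is a description and adds no support to it. The share of Pfn2 in Pfn1 plus Pfn2 counts was 18.24% (95% Wilson interval 17.08 to 19.46) in unchallenged Ctrl 1, 11.71% (11.06 to 12.4) in 2 and 8.02% (7.465 to 8.613) in 3. In challenged Ctrl it was 5.924% (5.281 to 6.64), 5.623% (5.136 to 6.154) and 3.609% (3.223 to 4.041). In challenged Vegfr3iLECko it was 10.64% (9.983 to 11.34), 5.212% (4.782 to 5.679) and 7.087% (6.549 to 7.665). The 2 control groups did not overlap, and the knockout libraries overlapped with both. How often such a ratio does not overlap for other gene pairs was not counted. The group means were 12.66 ± 5.175%, 5.052 ± 1.259% and 7.646 ± 2.757% (SD, n = 3). The intervals cover counting error only. In each group the share was lowest in the library with the highest Pfn1. Summed, Pfn1 and Pfn2 were at 334.6 ± 120.2, 365.6 ± 85.49 and 444.1 ± 124.6 CPM, with overlap between all groups. The sum followed Pfn1.

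**Figure D2:**
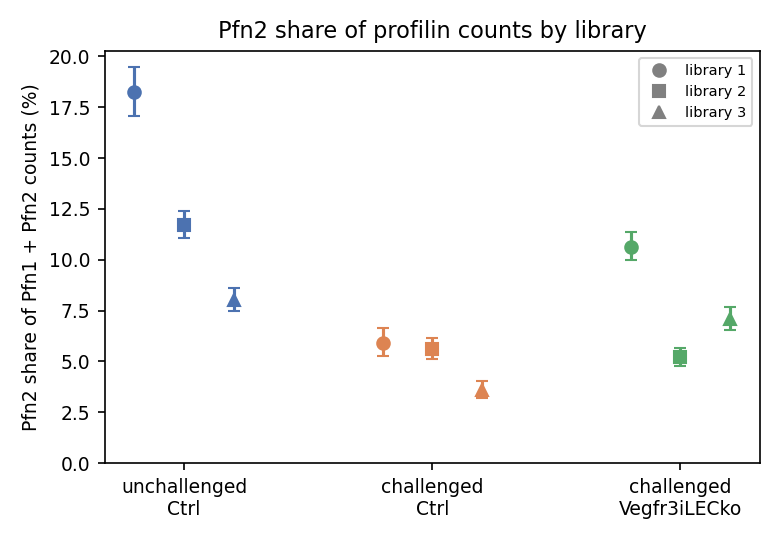
Share of Pfn2 in the counts of Pfn1 plus Pfn2 (percent) for each library, with 95% Wilson intervals; symbols are libraries 1 to 3 of each group. Challenged Ctrl libraries reach at most 5.924%, and unchallenged Ctrl libraries are at 8.02% or more. Pfn2 was chosen by its difference between these 2 groups.

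Challenged and unchallenged control pools were compared first, to see what the ovalbumin drops changed. The log2 fold change of Pfn2 was -1.10 (SE 0.15), which is 2.149-fold lower. This is the value that chose Pfn2, so neither its size nor its SE serves as a test of it. In this comparison 10 of 15613 genes (0.064%) were called at an adjusted p of 0.05, 9 (0.0576%) higher and 1 (0.0064%) lower. The 2 groups did not overlap, with challenge lower, in 8.5% of tested genes. By size alone the fold was not extreme, since 9.23% of genes had a larger absolute fold change. For Pfn1 the log2 fold change was 0.23 (SE 0.34, 95% interval -0.53 to 0.99, adjusted p = 0.887, edgeR). It did not pass, and the interval includes both lower and higher levels. Between control libraries of the same number Pfn1 was higher with challenge in 3 of 3 pairs. The pairing was read from these data, and the share of all genes with 3 of 3 pairs in 1 direction was not counted. With the replicate number as a block the log2 fold change was 0.29 (SE 0.19, adjusted p = 0.487, edgeR). Without unchallenged Ctrl 1 the unblocked value was -0.04 and without unchallenged Ctrl 3 it was 0.56. Pfn4 was at -0.48 (SE 0.53, adjusted p = 0.827, edgeR).

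The second comparison asked what loss of lymphatic Vegfr3 did under challenge. Pfn2 was higher in 3 of 3 knockout pools than in any challenged control pool, as were 6.7% of all tested genes. Its log2 fold change was 0.83 (SE 0.15, 95% interval 0.50 to 1.16, unadjusted p = 0.000233), which is 1.78-fold. It did not pass over all genes (edgeR quasi-likelihood test, adjusted p = 0.299). By that test 0 genes passed in this comparison, 1325 (8.49%) were under 0.05 unadjusted, and 231 (1.48%) were called by DESeq2. DESeq2 called Pfn2 too (log2 fold change 0.83, adjusted p = 0.000118), as it did 0.826% of genes in the higher direction. The 3 challenged control libraries in this comparison also took part in the choice of Pfn2. That choice favours low values in them, and so higher values in the knockouts. These p-values for Pfn2 are therefore not independent of it. The log2 fold change of Pfn1 was 0.25 (SE 0.34, 95% interval -0.51 to 1.0, adjusted p = 0.845, edgeR).

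Between challenged knockouts and unchallenged controls, the remaining pair of groups, Pfn2 was at -0.27 on the log2 scale (SE 0.15, 95% interval -0.60 to 0.06, adjusted p = 0.999, edgeR). All 3 knockout pools were below all 3 unchallenged pools, as in 3.33% of tested genes. The 3 unchallenged libraries also took part in the choice of Pfn2, which favours lower values in the knockouts here. Pfn1 was at 0.48 (SE 0.34, 95% interval -0.28 to 1.23, adjusted p = 0.999, edgeR). In this comparison 0 genes passed by edgeR, 452 (2.9%) were under 0.05 unadjusted, and 14 (0.0897%) were called by DESeq2. Every challenged control library was below every library of both other groups in 501 of 15613 genes (3.21%), and Pfn2 is among these.

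**Figure D3:**
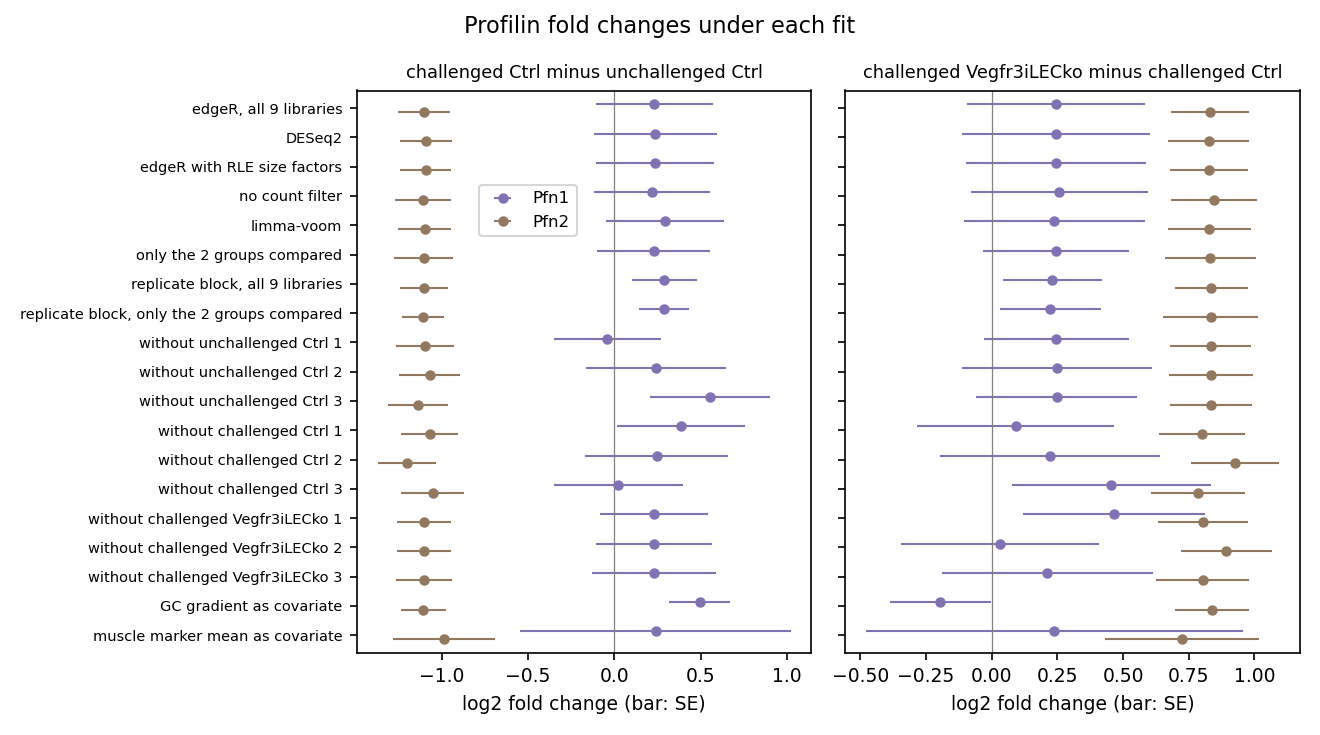
Log2 fold changes of Pfn1 and Pfn2 in both comparisons under each fit (dots; bars are SE), including the fits that leave out 1 library. Pfn2 stays between -1.20 and -0.99 with challenge and between 0.72 and 0.93 with genotype, while Pfn1 crosses 0 in both. The fits reuse libraries that chose Pfn2, so its narrow range adds no support. Its call with challenge was lost in 10 of 18 alternative fits.

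Pfn1 varied together with a difference that ran through the whole library. Genes were ranked by the G and C content of their GENCODE M21 transcripts, and the median log2 deviation of the 1533 lowest genes was subtracted from that of the 1533 highest, relative to the mean of the 9 libraries. This gradient was -0.59, 0.13 and 0.45 in unchallenged Ctrl 1 to 3, -0.69, 0.04 and 0.10 in challenged Ctrl 1 to 3, and -0.06, 0.34 and 0.34 in challenged Vegfr3iLECko 1 to 3. Library 1 had the lowest gradient and the lowest Pfn1 of each group. Pfn1 transcripts had a mean of 57.9% G and C, above 89.2% of genes, and Pfn2 transcripts 46.5%, above 26.9%. In a fit that added the gradient as a term, which was decided on after seeing the data, Pfn1 was at 0.50 with challenge (SE 0.18, adjusted p = 0.222, edgeR) and at -0.19 with genotype (SE 0.19, adjusted p = 0.888, edgeR). Its sign with genotype thus depended on that term. In the same fit Pfn2 was at -1.11 with challenge (SE 0.13) and at 0.84 with genotype (SE 0.14).

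The genes most like Pfn1 over the 9 libraries, by Pearson correlation of log2(CPM + 1) among genes with a mean of at least 10 CPM, were Hmga1, Tbc1d10b, Mta2, Ilrun and Lrrc47. Hmga1 (0.991) is a DNA-bending chromatin protein, Tbc1d10b (0.991) an activator of Rab GTPases and Mta2 (0.990) a subunit of a histone deacetylase complex. Hmga1 was at 59.4, 113 and 176 CPM in unchallenged Ctrl 1 to 3, which is the order of Pfn1. The correlations were as high within groups (0.989 to 0.993 over deviations from the group means). The most opposed genes were AW549877 (-0.988), the mitochondrial nucleotide carrier gene Slc25a36 (-0.988) and the phosphodiesterase gene Pde7a (-0.981). Transcripts of the most alike genes were 51.3% (Mta2, above 54.2% of genes) to 62.3% (Hmga1) G and C, without a value for Ilrun. Those of the most opposed genes were 40.0% (Slc25a36) to 47.8% (Pde7a).

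For Pfn2 the most alike genes were Lrp4 (0.974), Cep83os (0.961), Nexn (0.955), Usp2 (0.944) and Fxyd6 (0.944). Lrp4 is the agrin co-receptor of the neuromuscular junction, and Nexn encodes nexilin, an actin-binding protein of muscle. Usp2 is a deubiquitinating enzyme, and Fxyd6 belongs to a family that modulates the sodium pump. Lrp4 was at 26.5, 27.3 and 26.9 CPM in unchallenged Ctrl, 16.6, 17.6 and 18.0 CPM in challenged Ctrl and 25.7, 24.8 and 24.2 CPM in challenged Vegfr3iLECko. Within groups its correlation with Pfn2 was only 0.131, so the likeness lay between the groups; that of Cep83os was 0.827. The most opposed genes were AA467197 (-0.981), the CD8 chain gene Cd8a (-0.975) and the CD103 integrin gene Itgae (-0.963), all 3 called higher with challenge in these same libraries. Pfn1 and Pfn2 correlated at -0.21 with each other. All these values describe 9 libraries that share 3 groups.

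Other genes of actin assembly were read from 10 lists of 120 genes, of which 117 were tested. In the edgeR test 0 of 117 passed over all genes with challenge, while 16 were higher and 15 lower at an unadjusted p under 0.05 (26.5% of the members, against 12.4% of all tested genes, 6.77% higher and 5.65% lower). DESeq2 called 14 of them (12%, against 4.82%), 5 higher and 9 lower (over all tested genes 2.79% were higher and 2.03% lower). Their median log2 fold change was 0.13, against -0.01 over all tested genes. With the replicate number as a block, a pairing read from these data and not from the labels, 9 passed, 7 higher and 2 lower (7.69%, against 1.71% of all tested genes, 1.18% higher and 0.525% lower). All 7 were actin regulators found mainly in leukocytes. With genotype 0 of 117 passed by edgeR, 12 were higher and 16 lower at an unadjusted p under 0.05 (23.9%, against 8.49%, 3.95% higher and 4.53% lower). DESeq2 called 3 (2.56%, against 1.48%), the muscle genes Acta1, Lmod2 and Tmod4, which were higher. The block over all 9 libraries called Rac2 and Dock2 lower (against 0.102% of all tested genes). A pairing of the knockouts by number did not hold for number 2, and with the block in only the 2 groups compared 0 genes passed.

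Among the partners that profilin serves most directly, 0 actins, formins and Ena/VASP genes passed by edgeR in either comparison. With challenge DESeq2 called the muscle actin gene Acta1 (adjusted p = 0.000104) and the formin gene Fhod3 (adjusted p = 0.0322), both lower, and the block called Actc1 (adjusted p = 0.0379). Over all tested genes these fits called 2.03% and 0.525% lower. The cytoplasmic actins are the main substrate outside muscle: Actb was at 2270 ± 430, 2940 ± 377 and 2500 ± 522 CPM in unchallenged Ctrl, challenged Ctrl and challenged Vegfr3iLECko (SD, n = 3; adjusted p = 0.605 with challenge, edgeR). Actg1 was at 2530 ± 227, 3530 ± 863 and 2780 ± 396 CPM (adjusted p = 0.446, edgeR). Of 13 formins tested, 1 was higher and 1 lower at an unadjusted p under 0.05 with challenge (7.69% each, against 6.77% and 5.65% of all tested genes). Diaph1, the most abundant, was at 287 ± 42.9, 318 ± 28.0 and 321 ± 46.6 CPM, and Daam1 at 75.2 ± 6.23, 71.2 ± 4.70 and 73.7 ± 5.77 CPM. Fmnl1, a formin of leukocytes, was at 20.1 ± 1.59, 35.4 ± 14.0 and 21.2 ± 7.92 CPM. Fhod3, a formin of the sarcomere, was at 4.71 ± 0.827, 1.48 ± 0.625 and 4.45 ± 2.83 CPM. Among the 7 Ena/VASP proteins and partners 0 were under 0.05 in either comparison (against 12.4% of all tested genes with challenge and 8.49% with genotype). Vasp was at 118 ± 60.1, 143 ± 57.4 and 156 ± 54.3 CPM, and Zyx, which recruits Ena/VASP proteins to adhesions, at 161 ± 28.1, 190 ± 10.7 and 169 ± 11.1 CPM.

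Of the 9 monomer binders that work beside profilin 0 passed by edgeR, and DESeq2 called 1, Cap2, lower with challenge (adjusted p = 0.0176). That is 11.1% of them, against 2.03% of all tested genes called lower. Tmsb4x, the monomer-sequestering thymosin beta 4, was at 4900 ± 1270, 5320 ± 590 and 4710 ± 425 CPM, and Dstn, a filament-depolymerizing relative of cofilin, at 561 ± 26.5, 623 ± 39.7 and 627 ± 21.9 CPM. Cfl1, cofilin 1, was at 138 ± 27.2, 195 ± 24.0 and 164 ± 21.6 CPM (log2 fold change 0.50, SE 0.19, adjusted p = 0.296 with challenge, edgeR). Cap2, the cyclase-associated protein of striated muscle, was at 19.5 ± 9.62, 5.91 ± 4.02 and 15.4 ± 3.66 CPM (log2 fold change -1.73, SE 0.50, adjusted p = 0.178, edgeR). Its order of group means was that of Pfn2.

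Of the nucleation factors 0 passed by edgeR, and DESeq2 called 1, Was, higher with challenge (adjusted p = 0.0208), against 2.79% of all tested genes. Of 10 Arp2/3 subunits 1 was under 0.05 with challenge (10%, against 12.4% of all tested genes). Actr3, which encodes Arp3, was at 371 ± 22.5, 542 ± 107 and 407 ± 37.6 CPM (adjusted p = 0.223, edgeR) and was that subunit. Arpc2 was at 513 ± 133, 560 ± 91.3 and 610 ± 97.2 CPM. In the list of 18 WASP and WAVE genes, Nckap1, a WAVE complex subunit, was at 378 ± 36.3, 414 ± 48.7 and 369 ± 27.9 CPM. Was, the Wiskott-Aldrich protein gene of blood cells, was at 4.70 ± 0.988, 10.2 ± 3.70 and 5.39 ± 0.864 CPM (adjusted p = 0.173, edgeR). Of 7 tested genes for proteins found with profilin 2 in brain complexes, 0 were under 0.05 with challenge (against 12.4% of all tested genes). Among them Cltc, the clathrin heavy chain, was at 395 ± 40.9, 477 ± 78.4 and 364 ± 84.6 CPM. The dynamin gene Dnm1 was at 84.1 ± 10.4, 59.7 ± 3.93 and 49.3 ± 17.7 CPM (adjusted p = 0.423, edgeR). In the list of the actin-responsive factor Srf with its cofactors and targets, 2 of 18 genes were higher and 3 lower under 0.05 with challenge. These are 11.1% and 16.7%, against 6.77% and 5.65% of all tested genes. Flna, filamin A, was at 411 ± 45.7, 515 ± 53.1 and 482 ± 103 CPM, and Fhl1 at 297 ± 98.4, 133 ± 47.7 and 200 ± 78.8 CPM (adjusted p = 0.208 by edgeR and 0.0459 by DESeq2 with challenge).

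Lmod2, Acta1, Tmod1, Coro1a and Hcls1, named by the smallest p with challenge in their lists, are known from striated muscle or leukocytes. In the list of 17 tested capping and severing genes 1 was higher and 6 lower under 0.05, and in that of 12 leukocyte actin regulators 9 were higher and 0 lower (against 6.77% of all tested genes higher and 5.65% lower). Of the capping and severing genes, the 1 higher was Eps8 (log2 fold change 0.52, SE 0.165, adjusted p = 0.212, edgeR). The 6 lower included Scin (log2 fold change -0.67, SE 0.19, adjusted p = 0.167 by edgeR and 0.0434 by DESeq2). Lmod2, a leiomodin of the sarcomere, was at 21.8, 40.6 and 30.2 CPM in unchallenged Ctrl, 11.9, 7.44 and 5.53 CPM in challenged Ctrl and 20.2, 33.9 and 39.1 CPM in challenged Vegfr3iLECko. Its challenged control libraries lay below all others, as for Pfn2 (log2 fold change -1.90, SE 0.36, adjusted p = 0.0949, edgeR). Acta1, skeletal muscle actin, was at 273, 909 and 519 CPM, 182, 120 and 67.9 CPM, and 514, 389 and 420 CPM in the same order (adjusted p = 0.101, edgeR). Tmod1, a capping protein of thin filaments, was at 9.63, 26.3 and 14.2 CPM, 4.89, 5.56 and 2.91 CPM, and 13.9, 11.2 and 8.92 CPM (adjusted p = 0.101, edgeR, and 0.0379 with the block). Coro1a, a leukocyte coronin, moved the other way, at 36.6, 25.7 and 26.6 CPM, 121, 61.4 and 62.8 CPM, and 44.0, 44.7 and 30.4 CPM. Its log2 fold change with challenge was 1.46 (SE 0.29, adjusted p = 0.0998, edgeR, and 0.0206 with the block). Hcls1, a cortactin relative of blood cells, was at 10.3 ± 2.12, 21.3 ± 1.11 and 16.8 ± 3.34 CPM (adjusted p = 0.101, edgeR). DESeq2 called Lmod2, Acta1, Tmod1, Coro1a and Hcls1 with challenge, at adjusted p of 0.000104 to 0.000849. The block also passed Lcp1, Rac2, Dock2, Nckap1l, Cyth4 and Arhgap30, which were higher, and the cardiac actin gene Actc1, which was lower.

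**Figure D4:**
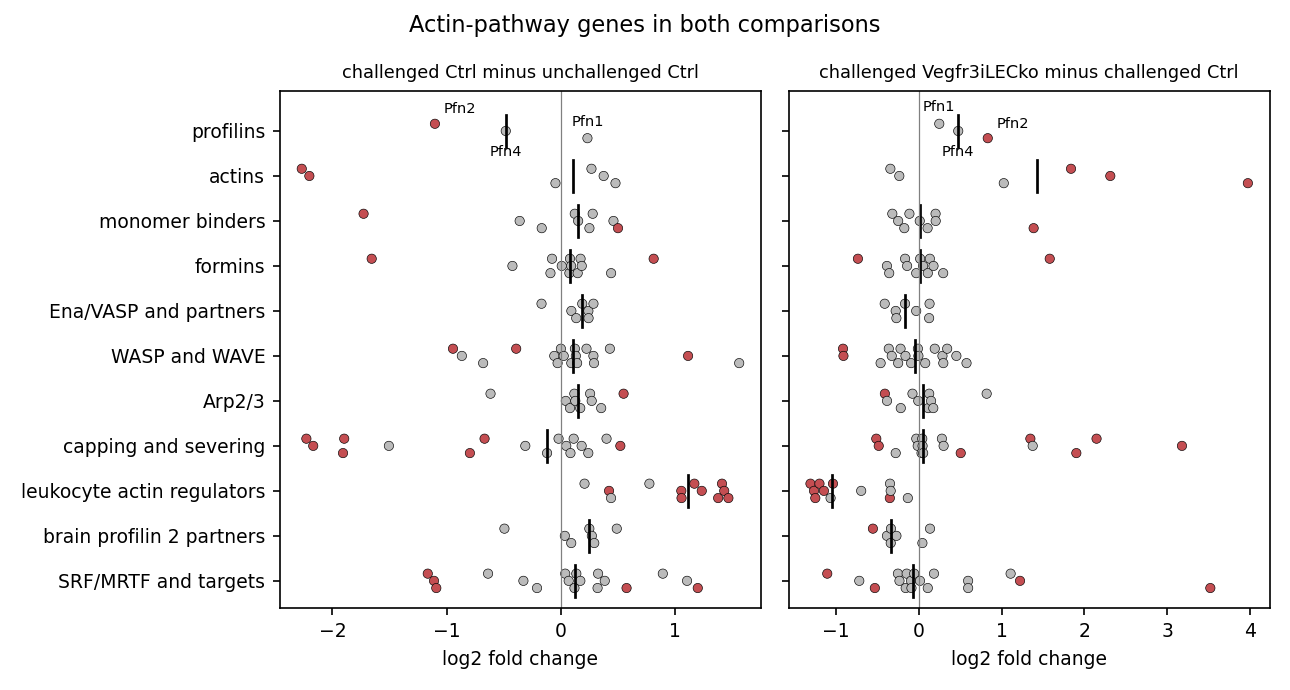
Log2 fold changes of tested actin-pathway genes with challenge (left) and genotype (right), by list; red dots have an unadjusted p under 0.05 and black bars are list medians. Both panels use the same challenged Ctrl libraries. Pfn2 lies at -1.10 on the left, and the leukocyte list has a median of 1.11 there.

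Markers of several other tissues differed between the same groups as Pfn2. All 17 tested skeletal muscle markers were lower with challenge at an unadjusted p under 0.05 (against 5.65% of all tested genes). Over all genes 0 passed by edgeR, 16 by DESeq2 (against 2.03%) and 6 with the block (against 0.525%), and the median log2 fold change was -2.21. The 17 markers in the table summed to 2000 to 6030 CPM in unchallenged Ctrl, 415 to 1170 CPM in challenged Ctrl and 2590 to 3630 CPM in challenged Vegfr3iLECko, and none was at 0 in all libraries. Within unchallenged Ctrl the sum was 2001, 6027 and 3085 CPM in libraries 1 to 3, and Pfn2 was at 38.56, 39.9 and 36.22 CPM. The mean log2 level of these markers was 4.31 to 5.60 in challenged Ctrl and 6.26 or more in every other library. A fit that added this mean as a term, also decided on after seeing the data, therefore cannot tell muscle RNA from group. In it Pfn2 was at -0.99 with challenge (SE 0.30) and at 0.72 with genotype (SE 0.29), and 0 genes passed in either comparison. Adipocyte markers summed to 21.9 to 99.9, 6.44 to 17.3 and 34.8 to 55.3 CPM in the 3 groups, and 6 of 7 tested were lower with challenge under 0.05 (against 5.65%). Blood endothelial markers summed to 265 to 420 CPM in unchallenged Ctrl and 220 to 255 CPM in challenged Ctrl, without overlap, and to 197 to 433 CPM in challenged Vegfr3iLECko, which overlapped with both. Of 12 tested, 4 were lower with challenge under 0.05 (against 5.65%), with a median log2 fold change of -0.77. The parts of muscle, adipocyte and endothelial RNA in the difference of Pfn2 were not tested separately from group.

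T cell markers moved against Pfn2. Of 16 tested, 6 were called higher with challenge by edgeR (against 0.0576% of all tested genes) and 12 with the block (against 1.18%). They summed to 24.8 to 44.4 CPM in unchallenged Ctrl, 239 to 466 CPM in challenged Ctrl and 59.1 to 97.4 CPM in challenged Vegfr3iLECko. Gzma, a killer cell protease and 1 of the 6, lay between 1.31 and 4.50 CPM in unchallenged Ctrl, 65.2 and 145 CPM in challenged Ctrl, and 8.49 and 24.5 CPM in challenged Vegfr3iLECko. The 12 macrophage and dendritic cell markers summed to 905 to 1460 CPM in unchallenged Ctrl, 2220 to 3540 CPM in challenged Ctrl and 1110 to 1370 CPM in challenged Vegfr3iLECko, with every challenged Ctrl library above all others, and 7 of 12 were higher with challenge under 0.05 (against 6.77%). The 10 pan-leukocyte markers summed to 184 to 359, 353 to 894 and 215 to 391 CPM. Summed markers of Schwann cells and nerve fibres overlapped between all 3 groups. Their 14 genes in the table summed to 305 to 454, 280 to 405 and 362 to 429 CPM. Group means were 364, 360 and 403 CPM, of which Mbp alone was at 263, 272 and 300 CPM. Snap25 and Nefl are not symbols of the table. With challenge 0 were higher and 1 lower of 12 tested under 0.05 (8.33%, against 5.65% of all tested genes lower). The median log2 fold change was -0.19 with challenge, 0.23 with genotype and -0.38 in knockouts against unchallenged Ctrl. The 14 markers of conjunctival epithelium and goblet cells summed to 21700 to 31900, 24600 to 34800 and 22600 to 38800 CPM, again with overlap. None of the T cell, macrophage, leukocyte, nerve or epithelial sums was tested for its part in the Pfn2 difference.

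**Figure D5:**
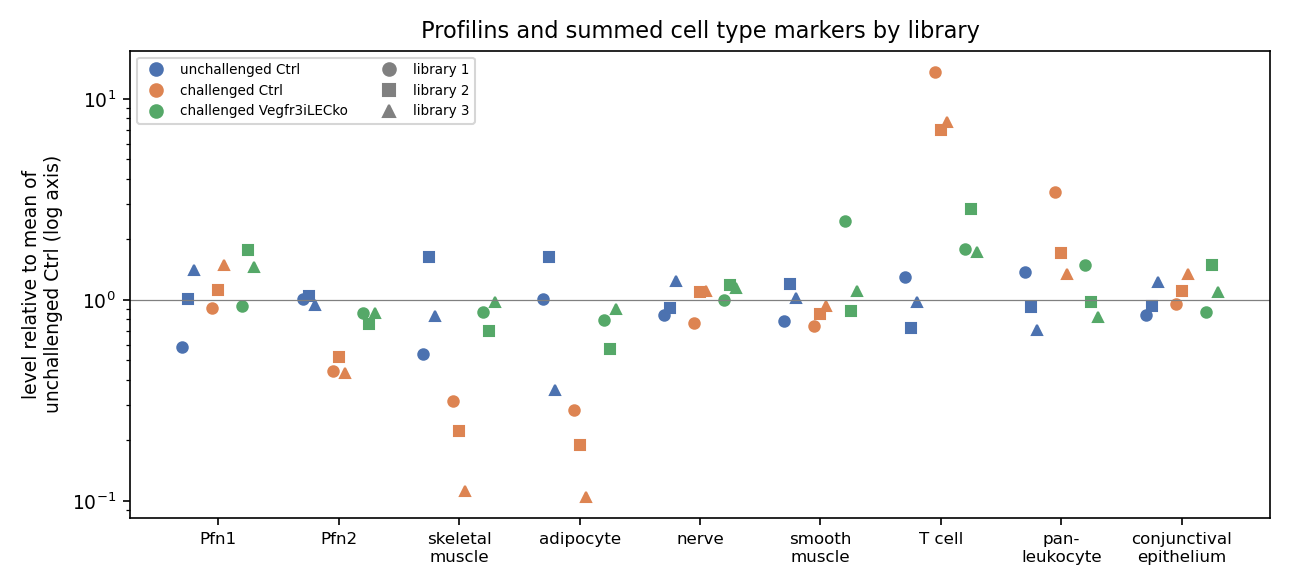
Levels of Pfn1, Pfn2 and summed cell type markers in each library, divided by the mean of unchallenged Ctrl (log axis); colours are groups and symbols libraries 1 to 3. Muscle and adipocyte sums are lowest in challenged Ctrl like Pfn2, and T cell sums are highest there.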

How the data were processed

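Raw counts by gene symbol, as deposited, were made by the authors with HISAT2, Bowtie2 and DESeq2 on mm39, per the submitters' processing notes. Tool versions, counting program, strand setting and annotation: not given in the sources used here. All 9 libraries entered 1 edgeR quasi-likelihood fit with TMM scaling and filterByExpr (R 4.3.3, edgeR 4.0.16), with Benjamini-Hochberg adjustment over 15613 genes, a threshold of 0.05 and two-sided tests. No fit imputed a value, and every replicate pair differed by more than sampling noise. Alternatives used DESeq2 1.42.0, limma-voom (limma 3.58.1), RLE scaling, no filter, 2 groups, a replicate block and each library left out. Same-numbered control libraries deviated together (correlations of 0.29 to 0.55 in 3 of 3 pairs), and the block treats libraries of the same number as paired. The labels state neither a pairing nor what a number marks. Same-numbered knockout libraries correlated at 0.34, -0.18 and 0.36 with challenged Ctrl 1 to 3, and at 0.32, -0.09 and 0.38 with unchallenged Ctrl. With number 2 negative, a pairing of the knockouts did not hold. The block over all 9 libraries, the source of block values unless said otherwise, still treated them as paired by number. So did the block in only 2 groups where the knockouts were 1 of them. Library 1 also had the lowest GC gradient of each group, and its part in these correlations was not tested. Scripts were tested on simulated data. P-values measure spread between pools of mice.

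Members and lists were chosen with earlier results of these data known. Named genes are list members that passed, otherwise the 2 most abundant and, for actin lists, the 2 with the smallest p with challenge; for likeness, the 5 most alike and 3 most opposed genes. Genes named beyond that (Flt4, Krt13, Muc5ac, Tmod4, Scin, Eps8 and those the block passed) were chosen after their values were seen. Near copies were sought with BLAST+ 2.17.0.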

Additional observations from a re-analysis of the deposited data

How the results depend on the processing

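Whether Pfn2 would have been selected depended on the fit, which adds no support to its difference. It was called lower with challenge by DESeq2, RLE scaling, no filter, both block fits and the GC covariate, but not by limma-voom (log2 fold change -1.10), in the 2 groups without the block (-1.11) or with the muscle covariate (-0.99). Leaving out 1 library gave -1.20 to -1.05, and it was then called only without unchallenged Ctrl 1 or challenged Ctrl 2. With genotype Pfn2 passed by DESeq2 (0.83, adjusted p = 0.000118) and under no other setting (0.72 to 0.93). Pfn1 passed under none. Its sign turned with challenge without unchallenged Ctrl 1 (-0.042; range 0.02 to 0.56 without any other library) and with genotype under the GC covariate (-0.19). Genes called with challenge numbered 753 (317 lower) by DESeq2, 20 (4 lower) with no filter, 6 by limma-voom, 1 with only the 2 groups, 267 (82 lower) with the replicate block and 476 (136 lower) with it in the 2 groups, 45 with the GC covariate and 0 with the muscle covariate. Leaving out 1 library gave 0 to 121: 0 without unchallenged Ctrl 2 or 3, 1 without challenged Ctrl 3, 5 and 6 without knockouts 3 and 1, 35 without challenged Ctrl 2 and 121 (68 lower) without unchallenged Ctrl 1. Actin-list genes called with challenge numbered 14 by DESeq2, 9 and 11 with the block fits, 1 with the GC covariate and 0 to 4 (4 without unchallenged Ctrl 1) with a library left out. With genotype DESeq2 called 231 genes and 3 actin-list genes, the block over all 9 libraries 22 and 2, and the block in only the 2 groups 0 and 0; in the remaining comparison DESeq2 called 14. Over all 9 libraries the pairing by number changed no call of Pfn1 or Pfn2 (-1.10 and 0.84 for Pfn2 with the block); in only the 2 control groups Pfn2 was called with the block and not without it. By the longest transcript, levels per kb were 148.4, 174.2 and 206.5 for Pfn1 and 16.32, 7.593 and 13.52 for Pfn2 in unchallenged Ctrl, challenged Ctrl and knockouts. Of the 5 genes most like each profilin, 0 (Pfn1) and 1 (Pfn2) recurred by Spearman and 0 over deviations. Mean Pfn2 shares with a library left out were 9.865% to 14.97%, 4.616% to 5.774% and 6.149% to 8.864%. The cause of these changes was not tested. Low counts limit Pfn4 most.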
